A study of Mus musculus with 6 samples.

Results

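Atf3, a stress-induced transcription factor gene, was examined together with 9 genes of the ATF4 stress branch in lung group 2 innate lymphoid cells (ILC2), tissue-resident lymphocytes that make type 2 cytokines and carry no T or B cell receptor. The 10 genes were taken by symbol from the deposited tables, which list 23183 genes in each of 6 libraries, and all 10 were above 0 in every library. They were the transcription factor genes Atf3, Atf4, Atf5, Ddit3 and Cebpb, the feedback genes Trib3 and Ppp1r15a, and the metabolic targets Sesn2, Chac1 and Asns. They were chosen by the measured DTA-1 against IgG2b contrast, in which Atf3 had passed a test over all genes, so its values are given for them as a description and no test of them is used as support.

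Cells received DTA-1, an agonist antibody against GITR, a costimulatory receptor of the TNF receptor family, or an IgG2b isotype antibody as control, with 3 libraries each. All 6 libraries came from primary lung ILC2 of wild-type mice, kept for 24 h with interleukin 2, interleukin 7 and interleukin 33 at 10 ng/ml, so the controls were activated cells too. The labels give neither strain, age nor sex of the mice, and they do not say whether libraries came from separate animals or cultures, so errors measure the spread between these libraries, which may be technical. Values were taken as FPKM, fragment counts scaled by transcript length and library size.

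In the integrated stress response, kinases that sense amino acid shortage, misfolded protein in the endoplasmic reticulum, double-stranded RNA or haem shortage phosphorylate the initiation factor eIF2 alpha. General translation then falls while ATF4 protein is made, so much of the control of ATF4 is at translation and is not seen in RNA. ATF4 switches on Ddit3 (encoding CHOP), Trib3, Chac1, Asns, Sesn2 and Atf3, often through composite C/EBP-ATF elements. Atf3 is also induced apart from this route, by MAP kinase, NF-kB and p53 signalling, and in immune cells ATF3 is known as a repressor of inflammatory genes.

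The promoters of 4 of the genes are shown because a scan of the RefSeq windows (GRCm38.p6, 250 bases before to 50 after each annotated start) found there, before the start, the core of the composite element, TGATGNAAN, or the full cAMP response element (CRE), TGACGTCA. The 250 bases before the start are given 5′ to 3′ on the strand of the gene. Capitals mark the composite core, the CRE and its short form TGACG, on either strand. The short form is part of every full CRE.
Atf3, chr1:191183334-191183583, minus strand: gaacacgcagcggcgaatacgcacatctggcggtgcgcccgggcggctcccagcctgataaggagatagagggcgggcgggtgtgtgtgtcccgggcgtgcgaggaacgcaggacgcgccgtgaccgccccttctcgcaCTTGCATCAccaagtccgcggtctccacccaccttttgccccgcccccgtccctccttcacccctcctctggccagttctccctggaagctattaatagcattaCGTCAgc
Ppp1r15a, chr7:45526269-45526518, minus strand: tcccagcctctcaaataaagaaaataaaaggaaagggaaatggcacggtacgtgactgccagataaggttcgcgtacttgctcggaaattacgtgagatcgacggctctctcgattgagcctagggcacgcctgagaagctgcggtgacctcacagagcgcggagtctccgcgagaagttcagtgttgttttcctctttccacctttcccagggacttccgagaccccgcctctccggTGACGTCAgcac
Chac1, chr2:119350992-119351241, plus strand: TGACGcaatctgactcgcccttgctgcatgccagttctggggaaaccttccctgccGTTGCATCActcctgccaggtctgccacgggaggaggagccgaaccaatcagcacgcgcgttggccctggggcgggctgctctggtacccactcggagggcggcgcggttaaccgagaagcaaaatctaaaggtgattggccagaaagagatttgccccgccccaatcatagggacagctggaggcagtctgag
Asns, chr6:7693210-7693459, minus strand: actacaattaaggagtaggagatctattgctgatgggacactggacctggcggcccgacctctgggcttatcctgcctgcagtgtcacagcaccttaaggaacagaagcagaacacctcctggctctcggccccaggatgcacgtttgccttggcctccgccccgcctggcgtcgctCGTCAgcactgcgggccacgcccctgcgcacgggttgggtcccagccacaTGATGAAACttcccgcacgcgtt
The composite core stood 111 to 103 bases before the Atf3 start, as TGATGCAAG on the opposite strand, 194 to 186 bases before the Chac1 start, as TGATGCAAC on the opposite strand, and 23 to 15 bases before the Asns start, as TGATGAAAC. Trib3 had it after its start, at bases 13 to 21, as TGATGTAAA on the opposite strand. These 4 of the 10 genes compare with 4.49% of 27018 genes with such a window. The full CRE was found in Ppp1r15a, 12 to 5 bases before its start, and in 2.03% of all genes. The short form was found in 7 of the 10 (23.0% of all genes), with 1 copy in Atf3, 7 to 3 bases before its start. The AP-1 site TGANTCA was found in Ddit3 (8.98% of all genes), and no window of the 10 genes held the NF-kB motif, GGG and TTCC separated by 3 bases (6.31% of all genes), or the ER stress element, CCAAT and CCACG separated by 9 bases (0.137% of all genes). Of the more general motifs, the CCAAT box, which is part of that element, was found in 6 of the 10 (41.1% of all genes) and the TATA box TATAAA in 3 (15.7% of all genes). A match describes the letters of the window and is not evidence of binding. The RefSeq windows used hold 2 starts for Atf5 and 1 for each of the others; the GENCODE span of Atf3 given below begins upstream of its window, so that start was not scanned.

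Atf3 was the member furthest apart between the antibodies. It measured 31.5, 28.6 and 27.4 FPKM in the DTA-1 libraries, against 9.39, 11.8 and 10.7 FPKM in the IgG2b libraries. The groups did not overlap, and the lowest DTA-1 library was more than double the highest IgG2b library. The means were 29.2 ± 2.07 FPKM with DTA-1 and 10.6 ± 1.22 FPKM with IgG2b (SD, n = 3 each), a log2 fold change of 1.38 ± 0.12 (SE of the fit, on log2(FPKM + 1), as for all fold changes here). Of 10501 genes tested, 99.8% had a lower log2 fold change. Atf3 is on chromosome 1 of GRCm38 (mm10) at 191170296 to 191218039, on the minus strand, and the tables give 1 value per gene, so its transcripts from different starts are not told apart.

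The value that chose Atf3 was its limma adjusted p of 0.0116 over all genes. With 1 library left out in turn, the log2 fold change was 1.30 to 1.45, and the limma adjusted p was 0.0651, 0.0738 and 0.0554 without DTA-1 replicates 1, 2 and 3 and 0.0594 without IgG2b replicate 3. The call was therefore lost in 4 of 6 such fits while the size of the difference stayed. Of the 10 members, 1 was called higher, Atf3, and 0 were called lower, where 0.0286% of all genes tested were called higher, 0.00952% lower and 0.0381% in either direction. In bulk libraries, more cells that express a gene and more RNA of it per cell cannot be told apart.

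**Figure D1:**
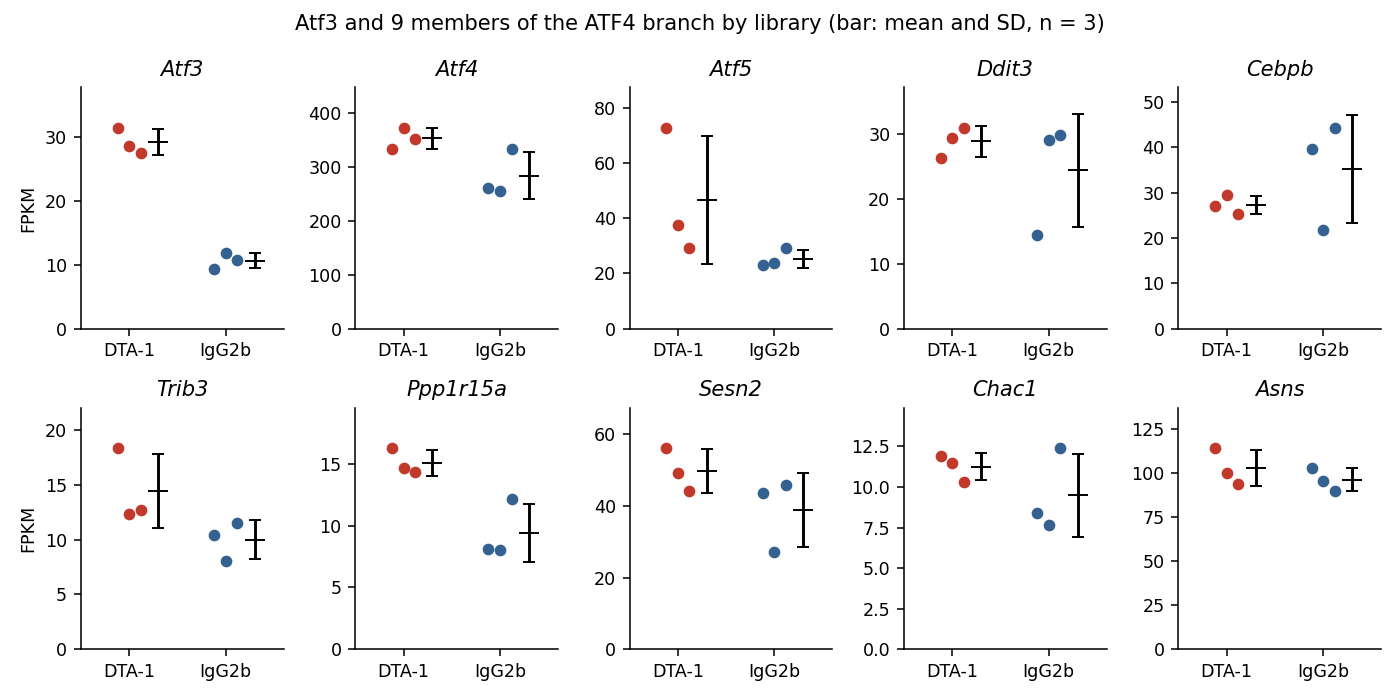
FPKM (vertical axes, each starting at 0) of the 10 genes in each library, with DTA-1 on the left and IgG2b on the right of each panel; points are libraries and bars the mean and SD (n = 3). The Atf3 libraries form 2 tight groups, 27.4 to 31.5 against 9.39 to 11.8 FPKM, while most other genes overlap between the antibodies.

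Atf4, the central factor of the branch, was the most abundant of the 10 genes and differed less than Atf3. It measured 333, 373 and 352 FPKM in the DTA-1 libraries, against 261, 255 and 334 FPKM in the IgG2b libraries. IgG2b replicate 3 lay within the DTA-1 range, so the groups overlapped. The log2 fold change was 0.32 ± 0.13, and 92.1% of genes tested had a lower one.

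Atf5, a relative of Atf4 that is itself under translational control, was higher mainly in 1 library. It measured 72.9, 37.5 and 29.3 FPKM in the DTA-1 libraries, against 23.0, 23.7 and 29.1 FPKM in the IgG2b libraries. The groups did not overlap, but DTA-1 replicate 3 was only just above IgG2b replicate 3, and DTA-1 replicate 1 was far above the rest. The log2 fold change was 0.76 ± 0.29, and 0.39 without DTA-1 replicate 1. In the annotation, 4.11% of the exon bases of Atf5 are shared with Nup62 and with Il4i1 on the opposite strand, and the use of strand in counting is not given in the sources used here. Nup62 measured 57.8, 48.2 and 44.7 FPKM with DTA-1, against 62.0, 40.5 and 51.1 FPKM with IgG2b, and Il4i1 at most 1.72 FPKM in any library.

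Ddit3, which encodes the pro-apoptotic factor CHOP, was alike in 5 of the 6 libraries. It measured 26.4, 29.4 and 31.1 FPKM in the DTA-1 libraries, against 14.4, 29.1 and 29.9 FPKM in the IgG2b libraries. IgG2b replicate 1 alone was low, and the other IgG2b libraries lay within the DTA-1 range. The log2 fold change was 0.30 ± 0.25, and -0.03 without IgG2b replicate 1. Ddit3 shares 3.97% of its exon bases with Mars on the opposite strand, which measured between 57.9 and 66.5 FPKM with DTA-1 and between 48.1 and 62.0 FPKM with IgG2b.

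Cebpb, which encodes the C/EBP beta partner that dimerises with ATF4 and CHOP, was the single member with a negative log2 fold change, at -0.30 ± 0.24. It measured 27.0, 29.5 and 25.4 FPKM in the DTA-1 libraries, against 39.5, 21.9 and 44.4 FPKM in the IgG2b libraries. The DTA-1 libraries lay between the lowest and the next IgG2b library. Cebpb shares 20.7% of its exon bases with Tmem189 on the opposite strand, which measured 34.4, 40.8 and 35.3 FPKM with DTA-1, against 34.5, 25.0 and 35.4 FPKM with IgG2b.

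Both feedback genes lay higher in each DTA-1 library than in any IgG2b library. Ppp1r15a, which encodes GADD34, the phosphatase subunit that reverses eIF2 alpha phosphorylation, measured 16.3, 14.7 and 14.3 FPKM in the DTA-1 libraries, against 8.08, 8.03 and 12.2 FPKM in the IgG2b libraries. Its log2 fold change of 0.65 ± 0.17 was next in size to those of Atf3 and Atf5. Trib3, a pseudokinase gene whose product inhibits ATF4 and CHOP, measured 18.3, 12.3 and 12.7 FPKM in the DTA-1 libraries, against 10.4, 8.04 and 11.5 FPKM in the IgG2b libraries. DTA-1 replicate 1 was again the highest, while the other 2 DTA-1 libraries stood little above IgG2b replicate 3. The log2 fold change of Trib3 was 0.48 ± 0.19, and 0.31 without DTA-1 replicate 1.

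The metabolic targets overlapped between the antibodies. Sesn2, a sestrin gene that restrains mTORC1 when leucine is short, measured 56.1, 49.0 and 44.1 FPKM in the DTA-1 libraries, against 43.5, 27.1 and 45.8 FPKM in the IgG2b libraries, a log2 fold change of 0.38 ± 0.20. Without IgG2b replicate 2, the low library, it was 0.15. Chac1, which encodes a glutathione-degrading enzyme, measured 11.9, 11.5 and 10.3 FPKM with DTA-1, against 8.40, 7.66 and 12.4 FPKM with IgG2b, a log2 fold change of 0.25 ± 0.18. The highest Chac1 value was in IgG2b replicate 3. Asns, the asparagine synthetase gene, measured 114, 100.2 and 94.0 FPKM with DTA-1, against 103, 95.8 and 90.1 FPKM with IgG2b, a log2 fold change of 0.09 ± 0.12. It had the smallest difference of the 10. With 1 library left out in turn, the log2 fold change was 0.12 to 0.44 for Chac1, 0.01 to 0.15 for Asns and -0.60 to -0.11 for Cebpb.

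**Figure D2:**
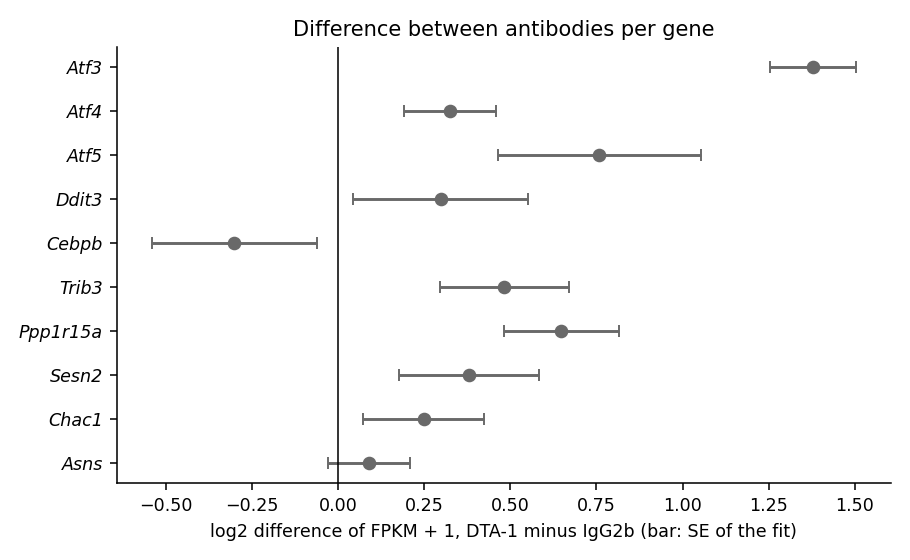
Log2 difference of FPKM + 1, DTA-1 minus IgG2b (horizontal axis), for each of the 10 genes (rows); points are estimates of the limma fit and bars their SE. Atf3 stands at 1.38, the next genes are Atf5 at 0.76 and Ppp1r15a at 0.65, and Cebpb lies below 0 at -0.30.

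Of the 9 genes other than Atf3, 8 had a positive and 1 a negative log2 fold change, with a median of 0.32 against 0.01 over all genes tested, and a range of -0.30 to 0.76. The share of genes tested with a lower log2 fold change was 98.8% for Atf5, 98.1% for Ppp1r15a, 96.6% for Trib3 and 94.4% for Sesn2. It was 92.1% for Atf4, 90.8% for Ddit3, 86.6% for Chac1, 65.5% for Asns and 11.3% for Cebpb. The groups did not overlap, with DTA-1 higher, for 4 of the 10 members, where this held for 11.2% of all genes tested. The 4 include Atf3, which this contrast chose. Among the 9 others it held for Atf5, Ppp1r15a and Trib3 alone. No member was lower in all DTA-1 libraries, against 10.5% of all genes.

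The difference of Atf3 thus had the sign of most of the branch but was larger. Its log2 level minus the mean log2 level of the 9 others was -0.42, -0.37 and -0.32 in the DTA-1 libraries, against -1.51, -1.09 and -1.67 in the IgG2b libraries. The means were -0.37 ± 0.05 with DTA-1 and -1.42 ± 0.30 with IgG2b (SD, n = 3 each), and the groups did not overlap. The difference between them was 1.05, made of 1.38 for Atf3 and 0.33 for the mean of the others. Set against the 4 other transcription factor genes alone, the difference was 1.11, and against the 5 feedback and metabolic genes it was 1.01. Against single genes it was smallest for Atf5 (0.62) and Ppp1r15a (0.73) and largest for Cebpb (1.68). Because the same contrast chose Atf3, these are descriptions without a test.

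**Figure D3:**
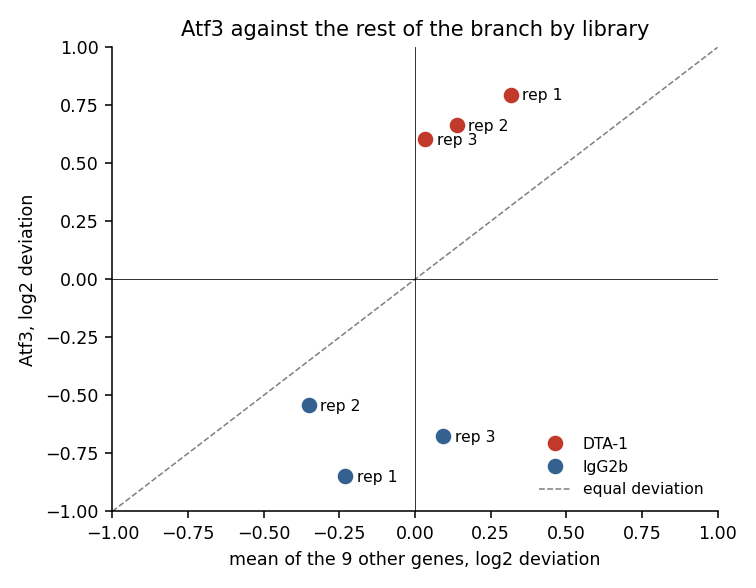
Log2 deviation of Atf3 from its mean over the 6 libraries (vertical axis) against that of the mean of the 9 other genes (horizontal axis); each point is a library and the dashed line marks equal deviation. The DTA-1 libraries lie above the line, with Atf3 0.61 to 0.80 above its mean, and the IgG2b libraries lie below it, with Atf3 0.54 to 0.85 under its mean.

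Within the groups, Atf3 and the mean of the 9 others shared the order of the libraries with DTA-1 and not with IgG2b. Among IgG2b libraries the mean of the 9 others was highest in replicate 3, 0.09 above its mean over all libraries, and lowest in replicate 2, at -0.35, whereas Atf3 was highest in replicate 2 (-0.54 from its own mean) and lowest in replicate 1 (-0.85). Among DTA-1 libraries both had replicate 1 highest, then 2, then 3, at 0.80, 0.67 and 0.61 for Atf3 and 0.32, 0.14 and 0.03 for the mean of the others. Single genes with that order were Atf5, Ppp1r15a, Sesn2, Chac1 and Asns. Atf4 and Cebpb were highest in replicate 2, Trib3 was lowest in replicate 2, and Ddit3 ran the reverse way (0.02, 0.17 and 0.25). The spread within a group exceeded the estimated counting error for most genes. For Ddit3 in IgG2b libraries the coefficient of variation was 35.6%, where counting alone would give 6.02% in its lowest library. Atf3 varied by 7.08% with DTA-1 and 11.5% with IgG2b, against a counting error of 5.21% in the library with the fewest fragments, about 368. That estimate takes the longest annotated transcript as the length.

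**Figure D4:**
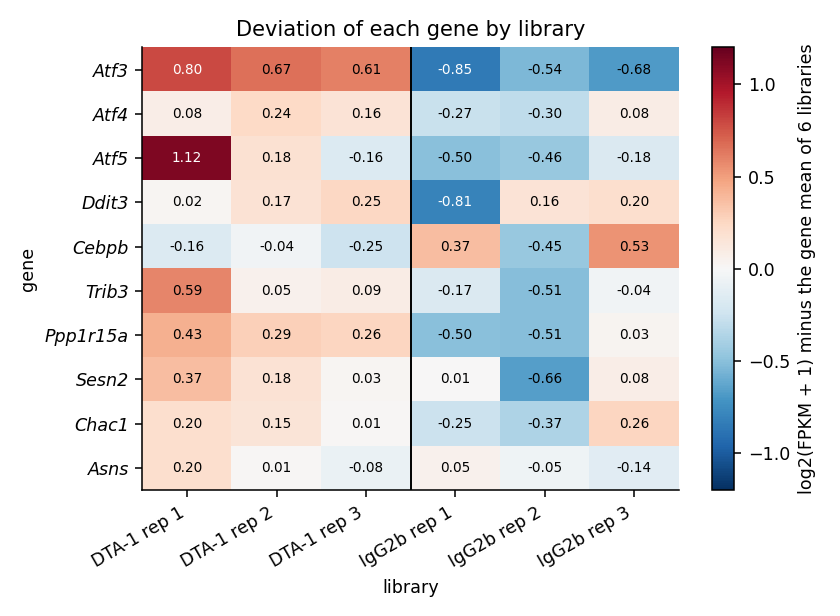
Deviation of each gene (rows) in each library (columns, DTA-1 left of the line) from its mean over the 6 libraries, in log2(FPKM + 1); red is above and blue below the mean. Atf3 has 1 sign per group, whereas Ddit3 is low in IgG2b replicate 1 alone (-0.81) and Atf5 is high mainly in DTA-1 replicate 1 (1.12).

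In order of level, Atf4, Asns and Sesn2 were the top 3 with both antibodies, and several of the others changed place, Cebpb by the most. With DTA-1 the means were 353 for Atf4, 103 for Asns, 49.8 for Sesn2, 46.6 for Atf5, 29.2 for Atf3, 28.9 for Ddit3, 27.3 for Cebpb, 15.1 for Ppp1r15a, 14.4 for Trib3 and 11.2 for Chac1, in FPKM. With IgG2b they were 283 for Atf4, 96.4 for Asns, 38.8 for Sesn2, 35.3 for Cebpb, 25.3 for Atf5, 24.5 for Ddit3, 10.6 for Atf3, 10.0 for Trib3, 9.49 for Chac1 and 9.42 for Ppp1r15a. With DTA-1, Atf3 was thus level with Ddit3 and Cebpb, whose ranges overlapped its own. With IgG2b its range overlapped those of Trib3, Chac1 and Ppp1r15a, all near 10 FPKM. Atf4 and Asns stood clear of the other genes in all 6 libraries, and with DTA-1 Chac1 stood below all others. Every other gene overlapped a neighbour in level.

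The lists of other ATF4 target genes, tRNA synthetases among them, had median log2 fold changes between 0.0017 and 0.21. Atf3 was chosen by this contrast, so its size is no measure for these lists. Over all 20 gene lists, 0 genes were called higher and 0 lower by limma, adjusted over all genes tested. At an unadjusted p under 0.05 there were 14.0% of all genes tested, 653 higher (6.22%) and 812 lower (7.73%). These are the shares to set beside the list counts that follow. Of 11 tested genes of amino acid synthesis, 0 had an unadjusted p under 0.05 and the median log2 fold change was 0.0017, against 0.01 over all genes; with 1 library left out it was -0.09 to 0.08. Psat1, an enzyme gene of serine synthesis, averaged 224 ± 16.4 FPKM with DTA-1 and 203 ± 17.6 FPKM with IgG2b (SD, n = 3 each), and Ass1, the argininosuccinate synthase gene, 64.5 ± 14.0 FPKM with DTA-1 and 54.2 ± 12.8 FPKM with IgG2b. Neither passed (limma adjusted p = 0.669 and 0.676).

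Of 9 tested amino acid transporter genes, 0 reached an unadjusted p under 0.05, 7 had a positive log2 fold change and the median was 0.21, or 0.12 without IgG2b replicate 2. Slc7a1, a carrier of cationic amino acids, averaged 55.4 ± 2.28 FPKM with DTA-1 and 46.6 ± 3.50 FPKM with IgG2b (limma adjusted p = 0.373), and Slc1a4, a carrier of neutral amino acids, 10.5 ± 0.969 FPKM with DTA-1 and 7.93 ± 1.97 FPKM with IgG2b (limma adjusted p = 0.393). Of 16 tRNA synthetase genes and their export factor, 14 had a positive log2 fold change, but the median was only 0.06 (0.04 without IgG2b replicate 1) and 1 had an unadjusted p under 0.05. That gene was Gars, which charges glycine tRNA, at 186 ± 1.83 FPKM with DTA-1 and 157 ± 7.20 FPKM with IgG2b (limma adjusted p = 0.330), and Iars, for isoleucine, averaged 86.1 ± 3.77 FPKM with DTA-1 and 76.5 ± 4.65 FPKM with IgG2b (limma adjusted p = 0.541).

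Of 14 tested stress and survival targets of ATF4, 10 had a positive and 4 a negative log2 fold change, and 1 was higher and 1 lower at an unadjusted p under 0.05. The median was 0.10, but 0.05 without IgG2b replicate 2 and 0.20 without IgG2b replicate 3. Tnfrsf10b, a death receptor gene induced by CHOP, measured 54.9, 43.6 and 42.6 FPKM with DTA-1, against 35.2, 30.4 and 31.8 FPKM with IgG2b. Nupr1, a stress-induced chromatin protein gene, measured 101, 116 and 120.1 FPKM with DTA-1, against 139, 142 and 137 FPKM with IgG2b. Neither pair of groups overlapped, and neither gene passed (limma adjusted p = 0.157 and 0.263). Upstream, the 15 tested genes of the eIF2 alpha kinases and of eIF2 control had a median of 0.07, with 0 at an unadjusted p under 0.05. The median was 0.01 without DTA-1 replicate 3 and -0.02 without IgG2b replicate 1. Nck1, an adaptor gene, averaged 14.1 ± 0.645 FPKM with DTA-1 and 17.7 ± 2.95 FPKM with IgG2b (limma adjusted p = 0.388), and Eif2b1, of the exchange factor for eIF2, 39.8 ± 2.92 FPKM with DTA-1 and 35.9 ± 1.86 FPKM with IgG2b (limma adjusted p = 0.648).

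The ATF6 and XBP1 branches of the unfolded protein response, which build folding capacity in the endoplasmic reticulum, had more negative than positive log2 fold changes. Of 22 tested genes, 16 had a negative log2 fold change, the median was -0.12 and 3 had an unadjusted p under 0.05, each lower with DTA-1, against 7.73% of all genes tested. The groups did not overlap for 7 lower and 1 higher, against 10.5% and 11.2% of all genes. Without IgG2b replicate 2 the median was -0.06. Sdf2l1, a chaperone cofactor gene, measured 96.3, 74.1 and 83.0 FPKM with DTA-1, against 134, 127 and 108 FPKM with IgG2b (limma adjusted p = 0.157). Hsp90b1, the chaperone gene of GRP94, averaged 391 ± 32.3 FPKM with DTA-1 and 581 ± 168 FPKM with IgG2b (limma adjusted p = 0.273).

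Lists of immediate early genes and of p53 and NRF2 targets were compared as well. No list was made of NF-kB targets, and the lists describe the levels of target genes. No route to Atf3 was tested. Immediate early genes had a median log2 fold change of 0.38 over 17 tested genes, 8 of them higher and 1 lower at an unadjusted p under 0.05, where 6.22% and 7.73% of all genes tested were. Without DTA-1 replicate 1 the median was 0.30, with any 1 library left out it was at most 0.54, and over the genes with a mean of at least 5 FPKM it was 0.58. Egr1, a growth-factor-induced zinc finger gene, measured 8.12, 12.1 and 10.4 FPKM with DTA-1, against 4.74, 4.37 and 5.48 FPKM with IgG2b (log2 fold change 0.92 ± 0.16, limma adjusted p = 0.0819). Gadd45b, a stress-response gene, measured 75.6, 62.2 and 59.4 FPKM with DTA-1, against 35.3, 39.7 and 45.1 FPKM with IgG2b (0.70 ± 0.14, limma adjusted p = 0.102). DTA-1 libraries lay above all IgG2b libraries for both genes.

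Targets of p53 had a median of 0.19 over 15 tested genes (0.125 without IgG2b replicate 1), with 1 at an unadjusted p under 0.05. That gene was Cdkn1a, the p21 gene, at 664, 519 and 479 FPKM with DTA-1, against 312, 338 and 367 FPKM with IgG2b (0.70 ± 0.15, limma adjusted p = 0.108), while Tigar averaged 9.94 ± 0.748 FPKM with DTA-1 and 8.15 ± 0.640 FPKM with IgG2b (limma adjusted p = 0.394). Oxidative stress targets of NRF2 had a median of 0.07 over 13 tested genes, which was -0.02 without DTA-1 replicate 1 and at most 0.11 with any 1 library left out. G6pdx, of the pentose phosphate pathway, measured 69.5, 43.3 and 39.0 FPKM with DTA-1, against 38.3, 26.9 and 33.1 FPKM with IgG2b (limma adjusted p = 0.302), and the peroxiredoxin gene Prdx1 averaged 222 ± 12.3 FPKM with DTA-1 and 254 ± 8.82 FPKM with IgG2b (limma adjusted p = 0.476).

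The bZIP factors that can pair with ATF3 or are related to it had a median of 0.03 over 27 tested genes (0.0034 to 0.09 with 1 library left out). Of these, 16 had a positive and 11 a negative log2 fold change. At an unadjusted p under 0.05, 1 was higher and 4 were lower, where 6.22% and 7.73% of all genes tested were. Nfil3, a bZIP factor gene needed for innate lymphoid cell development, measured 28.3, 36.9 and 35.4 FPKM with DTA-1, against 66.0, 54.4 and 55.9 FPKM with IgG2b (log2 fold change -0.80 ± 0.14, limma adjusted p = 0.0856). Nfe2l1, which drives proteasome genes, measured 79.7, 70.7 and 67.1 FPKM with DTA-1, against 42.6, 54.9 and 55.9 FPKM with IgG2b (0.50 ± 0.14, limma adjusted p = 0.171). DTA-1 libraries lay below all IgG2b libraries for Nfil3 and above them for Nfe2l1.

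**Figure D5:**
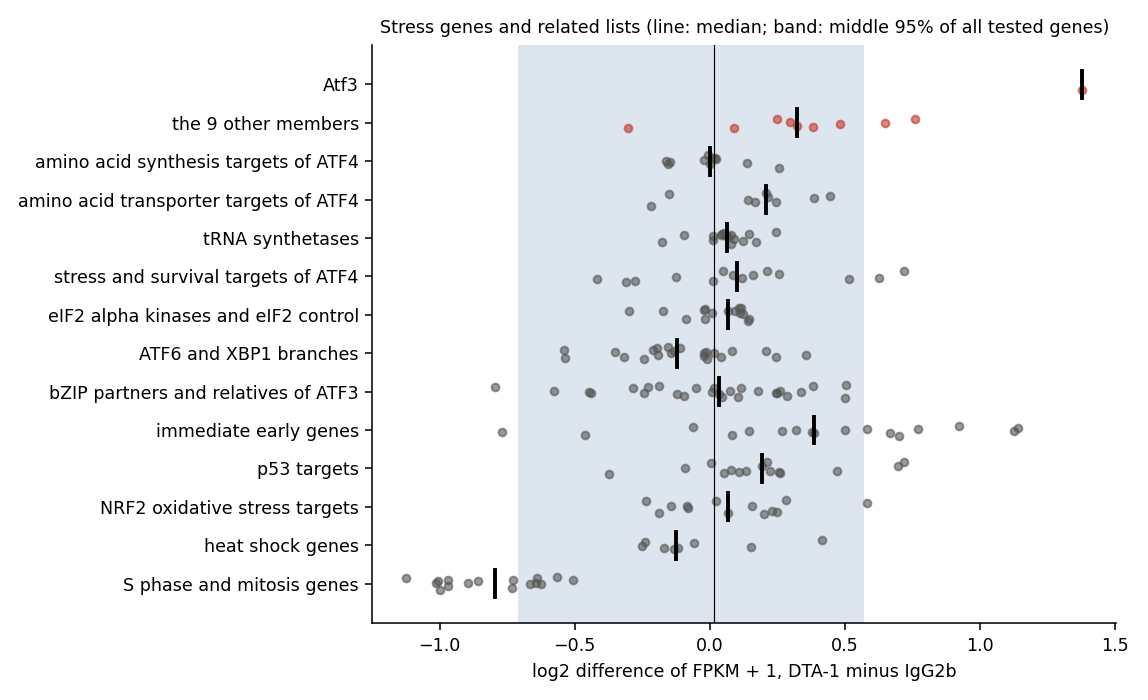
Log2 difference of FPKM + 1, DTA-1 minus IgG2b (horizontal axis), for each tested gene (points) of the lists (rows), with list medians as vertical bars; the shaded band holds the middle 95% of all tested genes, -0.71 to 0.57. Atf3 lies far right of the band, the 9 other members centre on 0.32, immediate early genes on 0.38 and S phase and mitosis genes on -0.80.

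The libraries had 574195 to 606724 FPKM in all, with about 19300000 to 21100000 fragments each, estimated from the steps between low values. All 12 ILC2 markers were tested, and they summed to 10090 to 11670 FPKM with DTA-1 and 6364 to 7621 FPKM with IgG2b. The list includes the cytokine genes Il13 (log2 fold change 1.23), Il5 and Areg, so the sum mixes cytokine output with lineage markers. The sum follows its most abundant members: 5 of the 12 had a positive and 7 a negative log2 fold change, the median was -0.23 (-0.12 without DTA-1 replicate 1 or without IgG2b replicate 2), and 2 were higher and 2 lower at an unadjusted p under 0.05. Gata3, the lineage regulator gene, averaged 179 ± 13.5 FPKM with DTA-1 and 165 ± 47.2 FPKM with IgG2b, Il7r 46.9 ± 10.3 FPKM with DTA-1 and 59.4 ± 15.8 FPKM with IgG2b, and Il1rl1, the interleukin 33 receptor gene, 182 ± 9.05 FPKM with DTA-1 and 253 ± 53.2 FPKM with IgG2b. Marker sums of the other cell types were far below that of ILC2. Epithelial markers, 1 of 7 tested and none at 0 in all libraries, summed to 1.54 to 2.22 FPKM with DTA-1 and 3.89 to 4.65 FPKM with IgG2b, with Epcam highest. T cell markers (2 of 7 tested, none at 0 in all libraries) summed to 14.6 to 15.0 FPKM with DTA-1 and 15.6 to 19.0 FPKM with IgG2b, led by Cd3g. The sums of the other 5 types overlapped between the antibodies, and Pax5, Marco, Mcpt4 and Dcn were at 0 throughout. The highest members were Cd79b for B cells, Prf1 for NK cells, Cd68 for macrophages, Kit for mast cells and Pecam1 for endothelium. The endothelial and fibroblast sum was the largest, 19.9 to 38.8 FPKM with DTA-1 and 31.7 to 43.8 FPKM with IgG2b, nearly all Pecam1. Mast cell and basophil markers summed to 5.52 to 12.1 FPKM with DTA-1 and 7.66 to 16.6 FPKM with IgG2b. All 16 tested genes of S phase and mitosis had negative log2 fold changes, with a median of -0.80, and -0.54 without IgG2b replicate 1. All 16 were lower at an unadjusted p under 0.05, against 7.73% of all genes tested, and for 15 the groups did not overlap, against 10.5% of all genes. Pcna, the replication clamp gene, averaged 180.2 ± 6.07 FPKM with DTA-1 and 301 ± 36.5 FPKM with IgG2b (limma adjusted p = 0.0817), and the kinetochore gene Ndc80 7.75 ± 0.706 FPKM with DTA-1 and 18.6 ± 5.51 FPKM with IgG2b (limma adjusted p = 0.0947). Heat shock genes had a median of -0.13 over 8 tested genes, which was 0.03 without IgG2b replicate 2, -0.01 without IgG2b replicate 1 and -0.26 without IgG2b replicate 3, with Hsp90aa1 at 515 ± 46.9 FPKM with DTA-1 and 612 ± 108 FPKM with IgG2b and Hspa1b at 1.68 ± 1.17 FPKM with DTA-1 and 0.905 ± 0.205 FPKM with IgG2b. The part of these shifts in the values of Atf3 and its branch was not tested.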

How the data were processed

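Total RNA (1.3 ug) of 6 primary mouse lung ILC2 samples, grouped by title, was made into directional libraries, per the labels' protocols. Running numbers in some treatment tags (IgG3b, DTA-2) disagree with the titles and were ignored. The authors deposited 1 value per gene and sample with no unit named, taken here as FPKM, already scaled by transcript length and depth, because steps between low values shrink with transcript length. TopHat and mm10 appear in the submitters' processing notes. The quantification program, annotation and strand setting: not given in the sources used here.

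Genes reaching 1 FPKM in 3 or more libraries (10501) were fitted with limma 3.58.1 (R 4.3.3) on log2(FPKM + 1), with trend and robust moderation and no term beside group; p-values are 2-sided and adjusted by Benjamini-Hochberg over all genes (threshold 0.05). Changes of low genes are understated on that scale. The fit was tested on simulated data with independent errors in each library, so that test does not cover deviations shared between libraries. Squared differences within replicate pairs averaged 14.1 to 118 times those of counting noise alone, so none was counted as a copy. Members and the 20 lists (256 of 257 entries matched) were chosen with earlier results of these data known. Named list genes are those called, or failing that the 2 of smallest p in a list, plus 3 ILC2 markers and the most abundant marker of each other type. Coordinates and lengths came from GENCODE M21 and promoters from RefSeq, where all 10 genes matched. Alternatives covered pseudocount, filter, scaling, moderation, weights, threshold, replicate block and left-out libraries.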

Additional observations from a re-analysis of the deposited data

How the results depend on the processing

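The log2 fold change of Atf3 stayed between 1.13 and 1.45 over the 17 alternatives that give it. Its call was lost with no filter on low values (limma adjusted p = 0.0596, log2 fold change 1.38), without replicate 1 of both groups (0.104, log2 fold change 1.25), and without IgG2b replicate 3 or any DTA-1 library, with log2 fold changes of 1.30 to 1.45 over the 6 libraries left out in turn. The distance of Atf3 from the 9 other members was 0.86 to 1.22. Of the other members, 8 kept their sign in all 17 alternatives; Ddit3 changed sign without IgG2b replicate 1 (-0.03). With array weights Trib3 was 0.20, Ppp1r15a 0.41, Chac1 0.03, Sesn2 0.17, Ddit3 0.16, Atf5 0.43 and Cebpb -0.49, each moved by over 1.5 times, while Atf3 was 1.35; the list medians moved as well, among them transporters (0.10), stress and survival targets (0.0051), the ATF6 and XBP1 branches (-0.07), heat shock genes (-0.03) and NRF2 targets (-0.03). Genes called over all tested were 3 higher (Atf3, Cd200 and Snora69) and 1 lower (Snora15). The small nucleolar RNA genes were at 0 in every IgG2b library (Snora69) or every DTA-1 library (Snora15). The counts were 1 and 1 with no filter on low values, 3 and 2 with equal totals, and 5 and 2 with quantile normalization. They were 161 and 314 with array weights, 6 and 1 without replicate 1 of both groups, and 44 and 45 at an adjusted p of 0.1. With 1 library left out they were 1 to 3 higher and 1 lower. List genes called were 0 higher and 0 lower, 9 and 18 with array weights, and 2 and 3 at an adjusted p of 0.1 (Egr1 and Il13; Nfil3, Pcna and Ndc80); with 1 library left out there were 0 in each direction. With the replicate number as a block, 59 genes were called higher and 126 lower, with 2 and 10 list genes. Same-numbered libraries correlated at 0.393, -0.101 and -0.129 in their deviations from the group means, so the numbers were not taken to pair samples. DTA-1 replicate 2 correlated with IgG2b replicate 3 at 0.385, and DTA-1 replicate 3 with IgG2b replicate 2 at 0.485. All other pairs of unlike number were negative, so each DTA-1 library correlated positively with exactly 1 IgG2b library. The main fit had no term for such sharing, so its SE and p-values do not take it into account. The block of same-numbered libraries follows that match for replicate 1 alone. The causes were not tested. The estimated depth puts 242 fragments or more behind every member value.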

Other observations

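Of 8136 other genes with a mean of at least 5 FPKM, those whose log2 levels followed Atf3 most closely over the 6 libraries were Tusc3, Anxa2, Snora69, Vegfc and Plekhg1. Their values separate the antibodies as those of Atf3 do, so the likeness largely restates the difference between groups that share culture and library. Vegfc, which encodes a lymphatic growth factor, measured 38.9, 35.6 and 35.4 FPKM with DTA-1, against 17.8, 19.6 and 21.3 FPKM with IgG2b. Tusc3, a gene of the oligosaccharyltransferase complex, measured 68.0, 64.8 and 66.3 FPKM with DTA-1, against 45.4, 48.0 and 47.9 FPKM with IgG2b. Anxa2, which encodes an annexin, measured 178, 175 and 170.3 FPKM with DTA-1, against 108, 120.2 and 122 FPKM with IgG2b, and Plekhg1 measured 29.4, 26.2 and 24.6 FPKM with DTA-1, against 14.2, 15.1 and 15.8 FPKM with IgG2b. Snora69, a small nucleolar RNA, was listed at 43.7, 24.8 and 24.5 FPKM with DTA-1 and at 0 in each IgG2b library.

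After the group means were subtracted, the closest genes were Eif4e2, Mbd3, Tnfrsf9, Fam129a and Pja1. Tnfrsf9, the gene of the costimulatory receptor 4-1BB, measured 30.2, 23.2 and 21.7 FPKM with DTA-1, against 11.7, 23.1 and 16.3 FPKM with IgG2b, with DTA-1 replicate 1 and IgG2b replicate 2 highest in their groups as for Atf3. With 6 libraries and this many genes compared, no test was made of the likeness.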
